A study of Mus musculus with 12 samples.

Results

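The 32 genes described here make or regulate cholesterol and fatty acids: 5 regulators, 15 enzymes on the route from acetyl-CoA to cholesterol, 1 sterol carrier, 3 enzymes of fatty acid synthesis, and 8 that desaturate, elongate or activate fatty acids. They were chosen by name from the array annotation, 1 probe a gene, and the brightest usable probe stood for each. All 32 were found among 31541 gene names, and all 32 were among the 18556 genes tested, those with a probe that stood well over background on each array of 1 or more groups. Levels were measured on 12 one-colour Agilent arrays in 6 groups of 2. The cells were sorted from marrow of female C57BL/6 mice aged 16 weeks, all of which carried a human CD4 (hCD4) reporter under the enhancer and promoter of Cebpa, a myeloid transcription factor gene. The groups were granulocyte-monocyte progenitors that were hCD4+ (GMP), hCD4- and hCD4+ pre-pro-B cells, hCD4- and hCD4+ pro-B cells, and pre-B cells, for which the labels give no hCD4 status. No group without the transgene was included. The series title speaks of 2 mice but the labels name no animal for a replicate number, so the spread behind each p-value is that between these samples and may be technical.

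Sterol synthesis is run by the SREBP transcription factors, encoded by Srebf1 and Srebf2. They are made as membrane proteins, and Scap carries them to the Golgi for cleavage when membrane sterol is low, whereas Insig1 and Insig2 hold Scap in the endoplasmic reticulum when sterol is plentiful. SREBP2 mainly turns on the cholesterol enzymes and SREBP1 the fatty acid enzymes, and Insig1 is itself an SREBP target. Dividing lymphocytes need sterols and fatty acids for new membrane.

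The promoters were searched for the letters that SREBP and its partner NF-Y are known to read. RefSeq windows (GRCm38.p6, 250 bases before to 50 after a start site) were at hand for 25 of the 32 genes, 34 windows in all. A sterol regulatory element, searched on both strands as TCACNCCAC, lay in 1 of them (2.94%), against 1.24% of all 32851 windows. CCAAT, the NF-Y letters, lay in 61.8% against 37.4%, the GC box GGGCGG in 73.5% against 35.7%, and the E-box CACGTG in 17.6% against 7.15%. Each motif was searched by itself, so matches of different motifs could share bases. A gene can have several windows, and a match is a description of sequence and not of binding. Shown are the 250 bases before the start of 3 genes that were highest in pre-pro-B arrays (Hmgcs1, Idi1 and Insig1) and of Elovl6, which was highest in pro-B arrays. All lie on the plus strand and read 5′ to 3′, and capitals mark TCACNCCAC and CCAAT on either strand, the latter as ATTGG on the minus strand.
Hmgcs1, chr13:119690101-119690350: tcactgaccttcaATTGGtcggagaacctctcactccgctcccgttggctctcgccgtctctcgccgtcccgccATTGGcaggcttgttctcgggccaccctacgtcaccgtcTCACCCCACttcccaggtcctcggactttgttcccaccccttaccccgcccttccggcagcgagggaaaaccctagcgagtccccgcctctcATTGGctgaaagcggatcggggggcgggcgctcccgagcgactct
Idi1, chr13:8885356-8885605: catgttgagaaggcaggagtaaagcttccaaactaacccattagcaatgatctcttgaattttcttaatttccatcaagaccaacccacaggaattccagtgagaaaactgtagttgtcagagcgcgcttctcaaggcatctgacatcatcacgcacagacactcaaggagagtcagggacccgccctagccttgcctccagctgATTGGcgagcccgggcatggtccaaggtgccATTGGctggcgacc
Insig1, chr5:28071162-28071411: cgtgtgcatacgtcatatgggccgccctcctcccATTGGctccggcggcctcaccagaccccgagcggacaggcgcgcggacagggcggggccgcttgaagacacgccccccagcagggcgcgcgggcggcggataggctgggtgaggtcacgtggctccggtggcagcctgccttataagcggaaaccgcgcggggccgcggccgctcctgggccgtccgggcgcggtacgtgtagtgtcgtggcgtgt
Elovl6, chr3:129532136-129532385: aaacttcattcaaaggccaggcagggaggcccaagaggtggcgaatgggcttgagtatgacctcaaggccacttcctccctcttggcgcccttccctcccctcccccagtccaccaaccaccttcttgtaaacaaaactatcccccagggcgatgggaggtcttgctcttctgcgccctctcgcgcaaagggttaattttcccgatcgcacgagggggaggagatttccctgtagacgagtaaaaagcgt
Hmgcs1 held the only TCACNCCAC match among the 34 windows, beginning at base -137 from the start site, with 3 NF-Y matches in the bases shown. In the bases shown Idi1 held 2 NF-Y matches, Insig1 held 1, and Elovl6 held neither motif. The genes shown are examples. In the same stretch Fasn, Elovl5 and Acsl3, not highest in pre-pro-B arrays, held 3, 2 and 1 NF-Y matches. Scap, highest there, held none in either window. Whether matches go with level was not tested.

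All values below are log2 levels relative to the 75th percentile of the same array, so 0 is the brightness of that percentile, 1 step is a doubling, and levels of different genes are not comparable. Probe positions are mm9, as the array annotation gives them. The extraction software saw 50.6 to 56.7% of probes above background per array, and replicates correlated at 0.982 to 0.992. The hCD4- pre-pro-B arrays were dimmer (mean 75th percentile signal 304.5, against 538.6 to 805.9 in the other groups) and noisier (median SD 0.22 between replicates, against 0.10 to 0.15). Probes for added control RNA had medians 7.84 and 7.92 above the 75th percentile there, against 4.86 to 7.38 on the other arrays. The GMP arrays of the same slide had 4.86 and 5.11. What lies behind this gap was not tested, and the levels given are not amounts of RNA per cell. Slide 1 held GMP and hCD4- pre-pro-B, slide 2 held pre-pro-B hCD4+ with pro-B hCD4-, and slide 3 held hCD4+ pro-B and pre-B. Comparisons within a slide are therefore given first, and in all others slide and group cannot be told apart. Marker genes went with the labels in part: all 8 pro-B and pre-B markers used were above background in the pro-B and pre-B groups, and Ebf1, Pax5 and Ms4a1 on no GMP or pre-pro-B array. The 6 GMP markers summed to 9.80 to 10.10 in GMP, 7.02 to 7.17 in hCD4+ pro-B, 4.18 to 5.40 in hCD4+ pre-pro-B and 1.26 to 2.17 elsewhere.

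**Figure D1:**
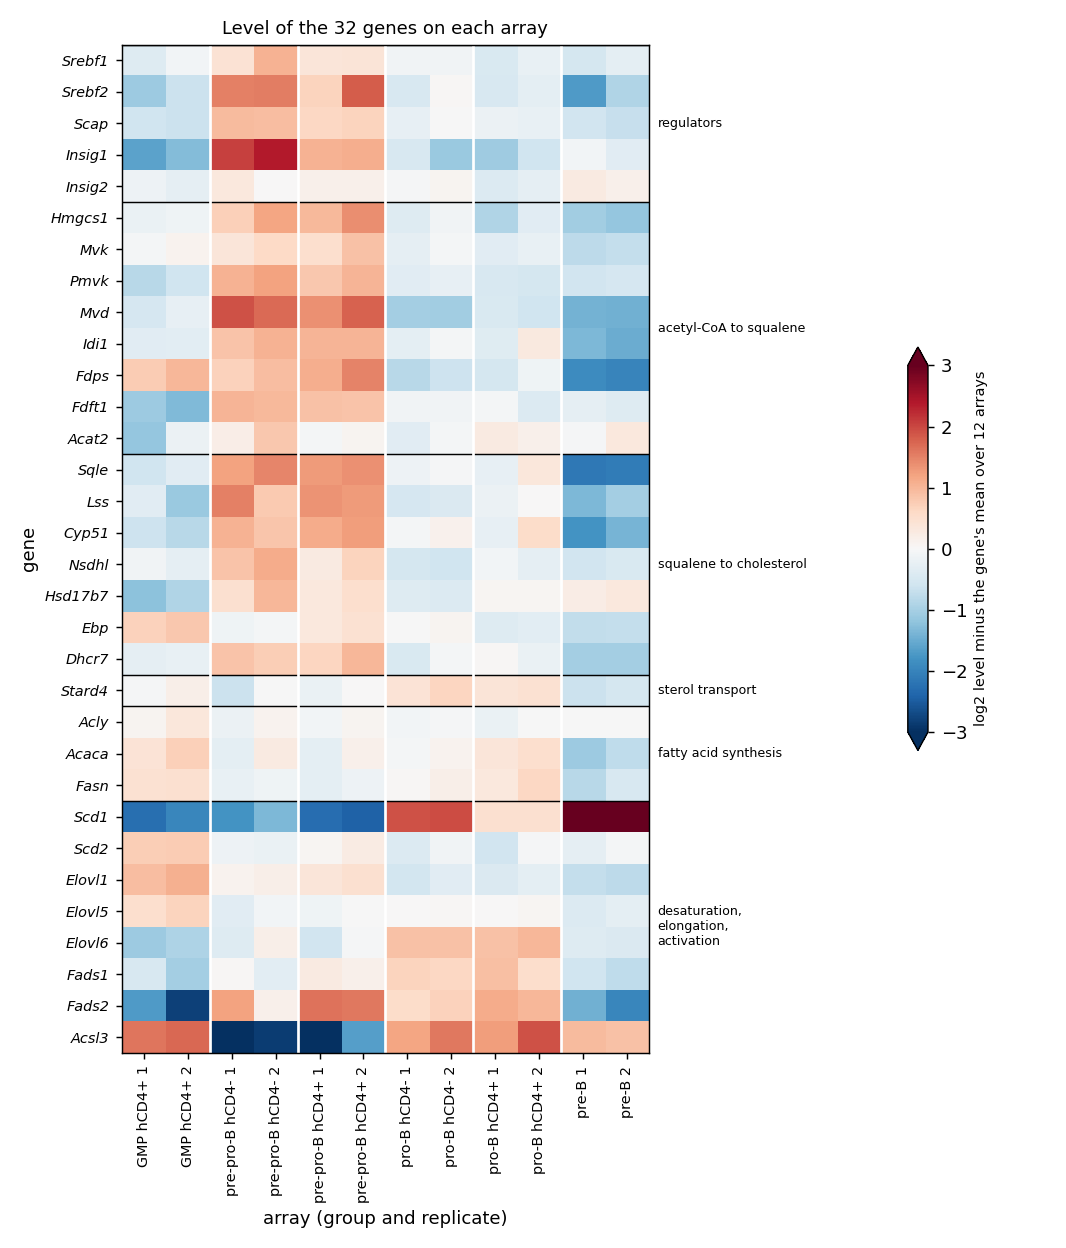
Level of each of the 32 genes (rows, by role) on each of the 12 arrays (columns, by group and replicate), as log2 level minus the gene's mean over all arrays, with the colour scale ending at -3 and 3. Most regulators and sterol enzymes are red on the 4 pre-pro-B arrays and blue on the 2 pre-B arrays, whereas Scd1, Elovl6 and Acsl3 run otherwise.

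Both pre-pro-B groups had the highest levels of most sterol genes. In 15 of the 32 genes all 4 pre-pro-B arrays lay above all 8 other arrays, against 11.9% of all genes tested. These were the regulators Srebf1, Srebf2, Scap and Insig1 and the enzymes Hmgcs1, Mvk, Pmvk, Mvd, Idi1, Fdft1, Sqle, Lss, Cyp51, Nsdhl and Dhcr7, that is 11 of the 15 sterol enzymes. Only Acsl3 had all 4 pre-pro-B arrays below the other 8 (14% of all genes). At the other end, both pre-B arrays lay below all 10 others in 12 of 32 genes (9.99% of all genes): Hmgcs1, Mvk, Mvd, Idi1, Fdps, Sqle, Cyp51, Ebp, Dhcr7, Acaca, Fasn and Elovl1. Scd1 was the 1 gene with both pre-B arrays on top (13.5%). GMP arrays were lowest for Insig1, Pmvk, Fdft1, Hsd17b7 and Elovl6 (14.1%) and highest for Ebp, Scd2, Elovl1 and Elovl5 (18.6%).

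Among the regulators, Srebf2, which encodes the main activator of the cholesterol enzymes (probe at chr15:82034765-82034824), read 1.01 and 1.04 in hCD4- pre-pro-B, 0.18 and 1.32 in hCD4+ pre-pro-B, -0.99 and -0.47 in hCD4- pro-B, -0.98 and -0.79 in hCD4+ pro-B, -2.19 and -1.41 in pre-B and -1.59 and -1.13 in GMP arrays. The 4 pre-pro-B arrays were the only ones above 0, and the hCD4+ pair was spread widely. Insig1 (probe at chr5:28404246-28404305) read 1.66 and 2.0 in hCD4- pre-pro-B, 0.64 and 0.71 in hCD4+ pre-pro-B, -0.87 and -1.49 in hCD4- pro-B, -1.45 and -0.99 in hCD4+ pro-B, -0.46 and -0.74 in pre-B and -1.99 and -1.69 in GMP arrays. Again only the pre-pro-B arrays were above 0, with the hCD4- pair higher than the hCD4+ pair without overlap.

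Scap, the escort protein of the SREBPs, read 5.12 and 5.09 in hCD4- pre-pro-B, 4.80 and 4.83 in hCD4+ pre-pro-B, 3.91 and 4.16 in hCD4- pro-B, 3.99 and 3.94 in hCD4+ pro-B, 3.58 and 3.47 in pre-B and 3.58 and 3.53 in GMP arrays. Its replicates were close, and pre-B and GMP arrays shared the low end. Srebf1, which encodes the SREBP isoforms that act mainly on fatty acid genes, read -1.62 and -1.01 in hCD4- pre-pro-B, -1.69 and -1.65 in hCD4+ pre-pro-B, -2.14 and -2.15 in hCD4- pro-B, -2.50 and -2.26 in hCD4+ pro-B, -2.58 and -2.35 in pre-B and -2.44 and -2.14 in GMP arrays. Its span was small, 1.15 between the highest and the lowest group mean. Insig2, the Insig gene that is not an SREBP target in most tissues, read -0.40 and -0.70 in hCD4- pre-pro-B, -0.57 and -0.58 in hCD4+ pre-pro-B, -0.76 and -0.64 in hCD4- pro-B, -1.14 and -1.0 in hCD4+ pro-B, -0.44 and -0.56 in pre-B and -0.86 and -1.0 in GMP arrays. Its pre-B arrays were at the level of the pre-pro-B arrays, and its GMP and hCD4+ pro-B arrays lay below all others. In limma's test Insig2 fell from hCD4+ pre-pro-B to hCD4+ pro-B, by -0.49 (adjusted p = 0.0142). That call was lost without either hCD4+ pre-pro-B array or hCD4+ pro-B replicate 1.

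The early enzymes build mevalonate and isoprenoids up to squalene. Hmgcs1, HMG-CoA synthase, read 3.54 and 3.99 in hCD4- pre-pro-B, 3.79 and 4.22 in hCD4+ pre-pro-B, 2.42 and 2.71 in hCD4- pro-B, 1.92 and 2.48 in hCD4+ pro-B, 1.77 and 1.64 in pre-B and 2.61 and 2.68 in GMP arrays. Mvd, mevalonate diphosphate decarboxylase (probe at chr8:124957750-124957809), read 1.19 and 0.98 in hCD4- pre-pro-B, 0.65 and 1.05 in hCD4+ pre-pro-B, -1.74 and -1.77 in hCD4- pro-B, -1.18 and -1.33 in hCD4+ pro-B, -2.14 and -2.16 in pre-B and -1.22 and -0.97 in GMP arrays. Both had pre-pro-B arrays on top and pre-B arrays at the bottom with no overlap, and for Mvd the GMP arrays were also above the hCD4- pro-B arrays.

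Mevalonate kinase, Mvk, read 2.48 and 2.72 in hCD4- pre-pro-B, 2.62 and 3.0 in hCD4+ pre-pro-B, 1.85 and 2.06 in hCD4- pro-B, 1.77 and 1.88 in hCD4+ pro-B, 1.33 and 1.40 in pre-B and 2.06 and 2.21 in GMP arrays. Phosphomevalonate kinase, Pmvk, read 4.24 and 4.42 in hCD4- pre-pro-B, 4.0 and 4.23 in hCD4+ pre-pro-B, 2.87 and 2.96 in hCD4- pro-B, 2.72 and 2.68 in hCD4+ pro-B, 2.63 and 2.70 in pre-B and 2.37 and 2.60 in GMP arrays. Idi1, isopentenyl diphosphate isomerase, read 2.30 and 2.49 in hCD4- pre-pro-B, 2.46 and 2.48 in hCD4+ pre-pro-B, 1.17 and 1.38 in hCD4- pro-B, 1.08 and 1.74 in hCD4+ pro-B, 0.11 and -0.04 in pre-B and 1.12 and 1.14 in GMP arrays. Mvk and Idi1 had pre-B arrays at the bottom, while Pmvk had GMP arrays there and pro-B and pre-B arrays side by side.

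Fdps, farnesyl diphosphate synthase, read 4.39 and 4.62 in hCD4- pre-pro-B, 4.78 and 5.19 in hCD4+ pre-pro-B, 2.87 and 3.08 in hCD4- pro-B, 3.16 and 3.57 in hCD4+ pro-B, 1.80 and 1.72 in pre-B and 4.46 and 4.69 in GMP arrays. GMP arrays were as high as hCD4- pre-pro-B arrays for this gene but below both hCD4+ pre-pro-B arrays, and pre-B arrays were far below all others. Fdft1, squalene synthase and the first step committed to sterols, read 0.25 and 0.20 in hCD4- pre-pro-B, 0.10 and 0.07 in hCD4+ pre-pro-B, -0.90 and -0.90 in hCD4- pro-B, -0.86 and -1.19 in hCD4+ pro-B, -1.06 and -1.16 in pre-B and -1.87 and -2.11 in GMP arrays. On this main probe GMP arrays were the lowest, and pro-B and pre-B arrays overlapped. A second probe of Fdft1 ordered the groups otherwise. Against hCD4- pre-pro-B it gave -1.81 (SE 0.88) for GMP and -3.74 (SE 0.88) for hCD4- pro-B. Acat2, a cytosolic acetoacetyl-CoA thiolase, read -1.56 and -0.96 in hCD4- pre-pro-B, -1.84 and -1.69 in hCD4+ pre-pro-B, -2.11 and -1.82 in hCD4- pro-B, -1.51 and -1.61 in hCD4+ pro-B, -1.80 and -1.44 in pre-B and -2.94 and -1.96 in GMP arrays, with overlap between most groups.

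The late enzymes turn squalene into cholesterol. Sqle, squalene epoxidase, a rate-limiting step (probe at chr15:59162688-59162747), read 3.20 and 3.46 in hCD4- pre-pro-B, 3.28 and 3.38 in hCD4+ pre-pro-B, 1.84 and 1.95 in hCD4- pro-B, 1.75 and 2.33 in hCD4+ pro-B, -0.14 and -0.10 in pre-B and 1.39 and 1.65 in GMP arrays. The groups fell into 3 separate tiers, pre-pro-B above pro-B and GMP, and these above pre-B. Cyp51, lanosterol demethylase, read -0.75 and -0.96 in hCD4- pre-pro-B, -0.68 and -0.54 in hCD4+ pre-pro-B, -1.86 and -1.67 in hCD4- pro-B, -2.03 and -1.24 in hCD4+ pro-B, -3.59 and -3.20 in pre-B and -2.42 and -2.63 in GMP arrays, and Lss, lanosterol synthase, read -1.49 and -2.21 in hCD4- pre-pro-B, -1.64 and -1.72 in hCD4+ pre-pro-B, -3.51 and -3.43 in hCD4- pro-B, -3.17 and -2.98 in hCD4+ pro-B, -4.34 and -4.03 in pre-B and -3.35 and -4.11 in GMP arrays. Cyp51 had the same tiers, and for both Sqle and Cyp51 the GMP arrays lay below all pro-B arrays. For Lss the GMP and pre-B arrays overlapped.

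Dhcr7, which makes the last step of one branch to cholesterol, read 0.07 and -0.04 in hCD4- pre-pro-B, -0.12 and 0.23 in hCD4+ pre-pro-B, -1.24 and -0.84 in hCD4- pro-B, -0.74 and -0.97 in hCD4+ pro-B, -1.80 and -1.79 in pre-B and -1.04 and -0.99 in GMP arrays. Nsdhl, a sterol dehydrogenase, read -0.97 and -0.71 in hCD4- pre-pro-B, -1.54 and -1.15 in hCD4+ pre-pro-B, -2.36 and -2.42 in hCD4- pro-B, -1.91 and -2.10 in hCD4+ pro-B, -2.41 and -2.29 in pre-B and -1.94 and -2.08 in GMP arrays. Both had pre-pro-B arrays on top, but for Nsdhl the remaining groups were mixed. Hsd17b7, a sterol ketoreductase, read -1.50 and -0.98 in hCD4- pre-pro-B, -1.66 and -1.47 in hCD4+ pre-pro-B, -2.35 and -2.37 in hCD4- pro-B, -1.91 and -1.90 in hCD4+ pro-B, -1.74 and -1.66 in pre-B and -3.20 and -2.87 in GMP arrays, with pre-B arrays close to the hCD4+ pre-pro-B arrays. Ebp, the sterol isomerase, read 3.78 and 3.86 in hCD4- pre-pro-B, 4.23 and 4.37 in hCD4+ pre-pro-B, 3.90 and 3.98 in hCD4- pro-B, 3.52 and 3.60 in hCD4+ pro-B, 3.18 and 3.19 in pre-B and 4.61 and 4.71 in GMP arrays, and was the 1 sterol enzyme with both GMP arrays on top.

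The sterol enzymes ran together more than the fatty acid genes did. Over the 6 group means the mean pairwise Pearson correlation was 0.68 among the 15 sterol enzymes, 0.09 among the 11 fatty acid genes and 0.01 among all genes tested. These are descriptions over 6 points from the same arrays and slides. Set against the mean of the other sterol enzymes, Dhcr7 stood at 0.99, Srebf2 at 0.98, Scap at 0.95, Srebf1 at 0.93 and Insig1 at 0.79, while the lowest among enzymes and regulators were Hsd17b7 at 0.48, Acat2 at 0.35, Ebp at 0.34 and Insig2 at 0.24. The fatty acid genes ran from Acsl3 at -0.88 and Scd1 at -0.77 to Elovl1 at 0.45 and Fads2 at 0.69. Scd1 was not above background in GMP and pre-pro-B arrays, nor Acsl3 in pre-pro-B arrays. Their correlations, and the 0.09 they enter, therefore rest in part on levels that carry no size. After centring each gene, the median of the sterol enzymes was 0.84 and 0.98 on the hCD4- and 0.88 and 1.02 on the hCD4+ pre-pro-B arrays. It was -0.34 and -0.10 on hCD4- pro-B, -0.25 and -0.19 on hCD4+ pro-B, -0.35 and -0.26 on GMP, and -1.03 and -1.02 on pre-B arrays.

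**Figure D2:**
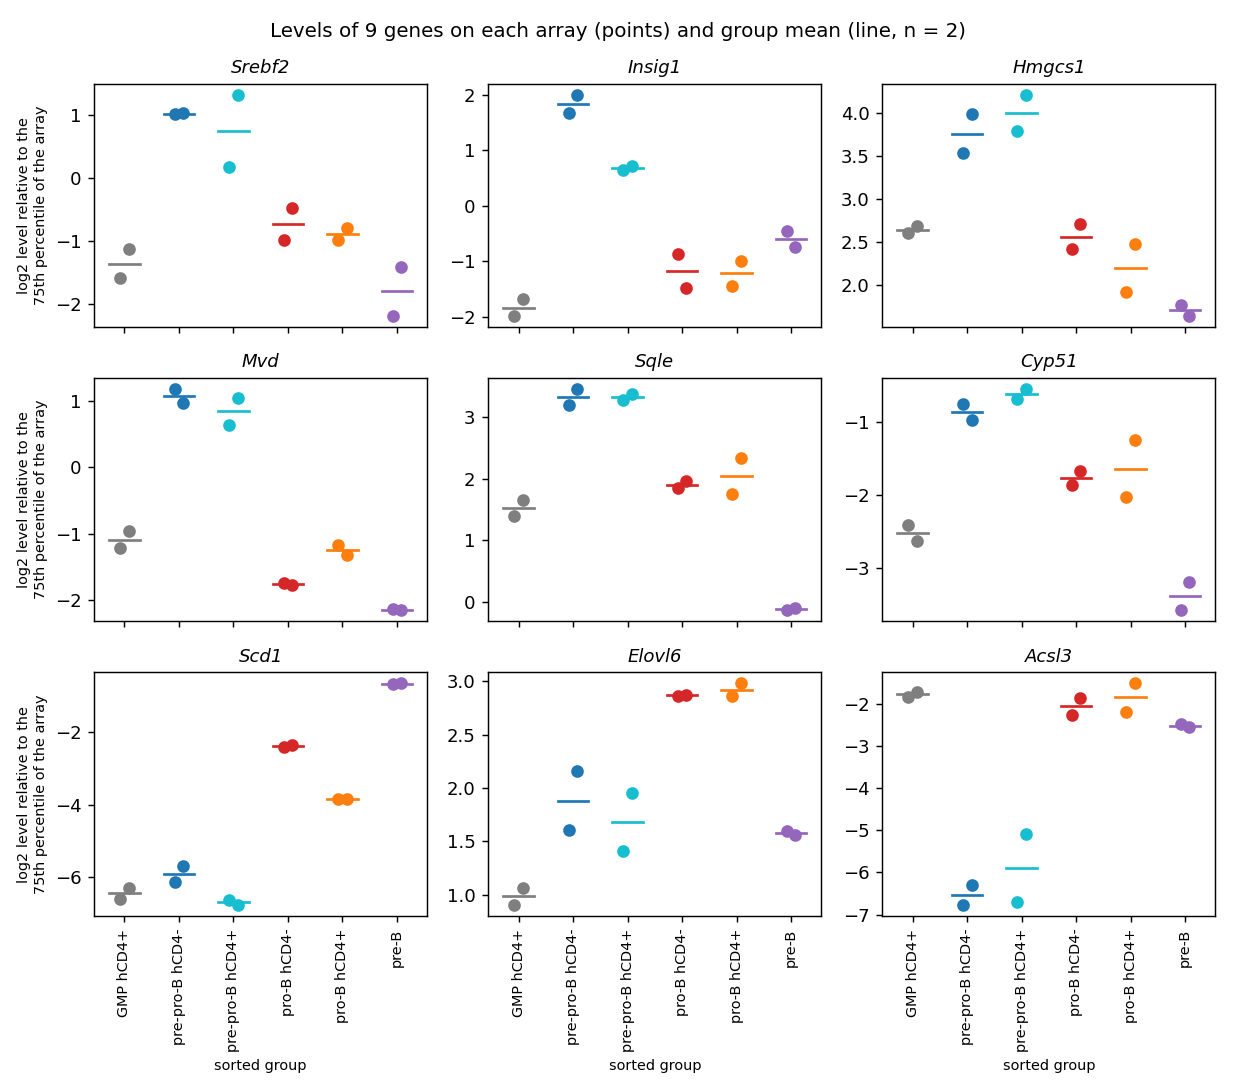
Log2 level relative to the array's 75th percentile (vertical axis, own scale in each panel) of 9 genes in the 6 sorted groups, with a point for each array and a line at the mean of 2. Srebf2, Insig1, Hmgcs1, Mvd, Sqle and Cyp51 are highest in both pre-pro-B groups, and Scd1, Elovl6 and Acsl3 are not.

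The step from pre-pro-B to pro-B was first read within slide 2, hCD4- pro-B set beside hCD4+ pre-pro-B arrays (which also differ in hCD4). Of the 32 genes 18 fell and 4 rose, against 18.6% and 29.3% of all genes tested (47.9% called in either direction), and the median change was -0.83 beside 0.15 for all genes. Of the 15 sterol enzymes 14 fell, with a median of -1.16. The largest fall was that of Mvd, -2.60 (SE 0.16, adjusted p = 4.53e-06), followed by Fdps -2.01 (SE 0.19, adjusted p = 6.34e-05), Lss -1.79 (SE 0.29, adjusted p = 0.00114) and Hmgcs1 -1.44 (SE 0.24, adjusted p = 0.00138). Sqle changed by -1.43 (SE 0.20, adjusted p = 0.000455) and Pmvk by -1.20 (SE 0.13, adjusted p = 0.000127). Idi1, Cyp51, Dhcr7, Nsdhl, Fdft1, Mvk, Hsd17b7 and Ebp fell by smaller amounts, from -1.19 to -0.36. Acat2 did not pass at -0.20 (adjusted p = 0.65).

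Among the regulators Insig1 changed by -1.86 (SE 0.25, adjusted p = 0.000411), Srebf2 by -1.48 (SE 0.40, adjusted p = 0.015) and Scap by -0.78 (SE 0.11, adjusted p = 0.000666). Srebf1 was at -0.48 (adjusted p = 0.0936) and Insig2 at -0.13 (adjusted p = 0.481). Elovl1 also fell and was at -0.87 (SE 0.12). The genes that rose were Scd1, Acsl3, Elovl6 and the sterol carrier Stard4. The calls of Srebf2, Ebp and Stard4 were lost with 1 array left out: Srebf2 without hCD4+ pre-pro-B replicate 2 (-0.90, adjusted p = 0.089) or hCD4- pro-B replicate 1 (-1.22, 0.0923), Ebp without either hCD4- pro-B array or hCD4+ pre-pro-B replicate 2 (adjusted p up to 0.135), and Stard4 without any 1 of the slide's 4 arrays, either hCD4+ pro-B array or either pre-B array (up to 0.174). A second probe of Srebf2 gave a larger fall here, -2.83 (SE 0.26, adjusted p = 4.52e-05), and a second probe of Fdft1 -2.72 (SE 0.88, adjusted p = 0.0335). A second probe of Hsd17b7 did not pass, at -0.30 (adjusted p = 0.337) beside -0.80.

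Across slides the same step gave like counts. Among hCD4- cells 18 genes fell and 5 rose (26.8% and 32.8% of all genes, 59.6% in either direction), and among hCD4+ cells 19 fell and 4 rose (21.2% and 32.9%, 54.1% in either direction). Medians were -0.77 and -0.73, beside 0.03 and 0.25 for all genes, and 13 of 15 sterol enzymes fell in each. Insig1 changed by -3.01 (SE 0.25) among hCD4- and -1.90 (SE 0.25) among hCD4+ cells, Mvd by -2.84 (SE 0.16) and -2.10 (SE 0.16), and Sqle by -1.43 (SE 0.20) and -1.28 (SE 0.20). Srebf1 was at -0.83 (adjusted p = 0.00856) and -0.71 (adjusted p = 0.0197). Its hCD4- call was lost with a fit of the compared arrays alone (adjusted p = 0.0611), and its hCD4+ call without either hCD4+ pre-pro-B array or hCD4+ pro-B replicate 1 (up to 0.106). Scaling by array median moved the share of higher among all calls from 60.8% to 39.2% in the hCD4+ pair, where 22 members then fell and 3 rose. A second probe of Hsd17b7 did not follow its main probe among hCD4- cells (0.39, adjusted p = 0.188, beside -1.12), and a second probe of Fdft1 fell by more in both.

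Other genes moved with this step. All 18 S phase genes rose from hCD4+ pre-pro-B to hCD4- pro-B arrays (median 1.24) while the sterol enzymes fell, so the lists ran opposite ways. Markers of plasmacytoid dendritic cells, which share B220 with B cell precursors, fell in 10 of 12, among them Ccr9, Bst2, Irf8 and Tcf4, and Xbp1, a gene of secretory cells and plasma cells, fell with -2.09 (SE 0.14). The summed level of the 12 dendritic cell markers was 10.18 to 10.24 in hCD4- and 9.71 to 9.80 in hCD4+ pre-pro-B, 7.16 to 7.18 in hCD4- and 7.66 to 7.71 in hCD4+ pro-B, 7.98 to 8.09 in pre-B and 7.17 to 7.20 in GMP arrays. All 12 were above background in both pre-pro-B groups, and Runx2 was above it on no hCD4- pro-B or pre-B array. This marker list was added after results were known, and its part in the sterol pattern was not tested. In bulk RNA of this kind fewer cells of a type and less RNA per cell cannot be told apart. The 4 neutrophil markers also rose, with summed levels of -3.05 to -2.75 in hCD4+ pre-pro-B and 3.69 to 4.56 in hCD4- pro-B, and the 4 monocyte markers fell, from 4.27 to 4.73 down to -2.26 to -1.92.

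**Figure D3:**
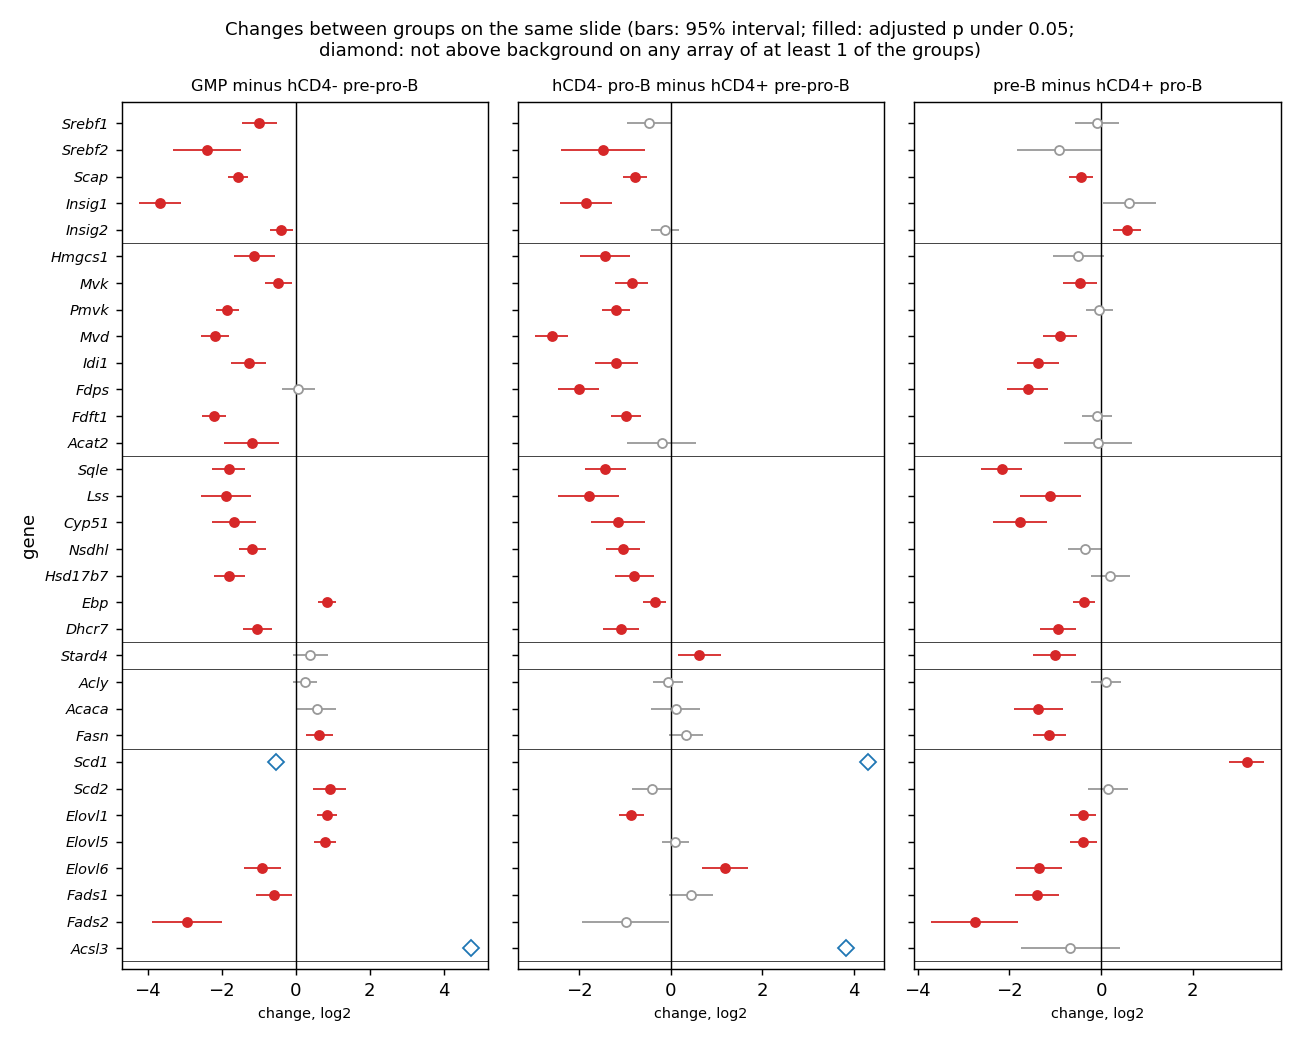
Change of each of the 32 genes (log2, horizontal) between the groups that share a slide, with 95% intervals as bars. Filled points have an adjusted p under 0.05, open points do not, and diamonds mark genes not above background on any array of 1 or both groups, whose position is no measured size. The middle panel shows 14 of 15 sterol enzymes to the left of 0 and filled.

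From pro-B to pre-B, within slide 3 (pre-B against hCD4+ pro-B), 18 of the 32 genes fell and 2 rose, against 23.8% and 19.1% of all genes (42.9% in either direction), with a median of -0.48 beside 0.02. Of the sterol enzymes 9 of 15 fell. The largest of these falls was that of Sqle, -2.17 (SE 0.20, adjusted p = 6.98e-05), then Cyp51 -1.76 (SE 0.26, adjusted p = 0.000863), Fdps -1.60 (SE 0.19, adjusted p = 0.000334) and Idi1 -1.37 (SE 0.20, adjusted p = 0.000934). Lss, Dhcr7, Mvd, Mvk and Ebp also fell, with changes of -1.11, -0.94, -0.90, -0.46 and -0.38. Pmvk was at -0.04 (95% interval -0.34 to 0.27), Fdft1 at -0.09 (95% interval -0.41 to 0.23) and Hsd17b7 at 0.20 (95% interval -0.22 to 0.63), and none of the 3 passed. Hmgcs1 also missed the threshold here at -0.49 (adjusted p = 0.136).

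Srebf2 was at -0.92 (adjusted p = 0.0982) on its main probe, while its second probe fell and was at -1.99 (SE 0.26, adjusted p = 0.000471). Insig1 did not fall with the enzymes: it was at 0.62 (adjusted p = 0.0784), and Insig2 rose by 0.57 (SE 0.13, adjusted p = 0.00987). Scap changed by -0.44 (adjusted p = 0.0153). Calls lost with 1 compared array left out were Scap (adjusted p up to 0.0944), Lss (0.089), Mvk (0.181), Ebp (0.0909), Insig2 (0.0647), Elovl1 (0.133) and Elovl5 (0.186). Mvk also lost its call without either GMP or either hCD4- pro-B array, and Elovl5 without either hCD4+ pre-pro-B or either hCD4- pro-B array.

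Against hCD4- pro-B, across slides, 16 genes fell and 2 rose in pre-B arrays (21.2% and 19.7% of all genes, 41% in either direction), with a median of -0.55 beside 0.03. Without hCD4- pro-B replicate 2 the count of 18 became 11. Scaling by array median moved the share of higher among all calls from 48.2% to 34.6%, with 21 members lower and 2 higher. Hmgcs1 passed in this comparison at -0.86 (adjusted p = 0.0224), a call lost without hCD4- pro-B replicate 2 or either pre-B array (adjusted p up to 0.125). In the within-slide comparison 12 of 18 S phase genes fell (median -0.61), as did 7 of 12 plasmacytoid dendritic cell, 6 of 6 GMP and 4 of 4 monocyte markers, and their part was not tested. Of the dendritic cell markers 1, Spib, rose, and their summed level was higher in pre-B (7.98 to 8.09) than in hCD4+ pro-B arrays (7.66 to 7.71).

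GMP, which were hCD4+, were set against hCD4- pre-pro-B within slide 1, so these groups also differ in hCD4. Here 22 of the 32 genes were lower in GMP and 6 higher, against 30.8% and 34.7% of all genes (65.5% in either direction), with a median of -1.0 beside -0.04. Insig1 differed most, with -3.67 (SE 0.25, adjusted p = 4.47e-06), and Srebf2 was at -2.38 (SE 0.40, adjusted p = 0.000839), Scap at -1.55 (SE 0.11, adjusted p = 6.84e-06) and Srebf1 at -0.97 (SE 0.21, adjusted p = 0.00335). Of the sterol enzymes 13 of 15 were lower, led by Fdft1 -2.21 (SE 0.14, adjusted p = 2.94e-06), Mvd -2.17 (SE 0.16, adjusted p = 7.01e-06) and Lss -1.88 (SE 0.29). The 2 exceptions were Ebp, higher by 0.84 (SE 0.11, adjusted p = 0.000157), and Fdps, with 0.07 (95% interval -0.38 to 0.52). A second Fdft1 probe did not pass, at -1.81 (SE 0.88, adjusted p = 0.103), and a second Hsd17b7 probe gave -0.57 (adjusted p = 0.061) beside -1.79.

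The authors' deposited table gave Fdps -0.45 (adjusted p = 0.0419) in this comparison, so its direction depends on the values used. Scaling by array median moved the median of all genes from -0.04 to 0.41 and the share of higher among all calls from 53.0% to 69.0%, with 17 members lower and 10 higher. The small difference of Insig2 on its main probe, -0.38 (adjusted p = 0.0347), turned to 0.073 with arrays scaled by their median. A second Insig2 probe gave -1.01 (SE 0.20, adjusted p = 0.00205). That probe also fell from hCD4- pre-pro-B to hCD4- pro-B, by -0.89 (adjusted p = 0.00473) beside -0.15 on the main probe. Calls lost with 1 compared array left out were Acat2 (adjusted p up to 0.0758), Mvk (0.147), Fads1 (0.223), Insig2 (0.167) and Scd1 (0.122). Fads1 and Insig2 also lost theirs without either hCD4+ pre-pro-B or either hCD4- pro-B array.

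Against hCD4+ pre-pro-B arrays, on another slide, 19 genes were lower and 7 higher in GMP (22.9% and 31.3%, 54.2% in either direction), with a median of -0.69 beside 0.10. Both GMP comparisons share the GMP arrays. Fdft1 was lower, at -2.07 (SE 0.14), though its second probe gave -0.79 (adjusted p = 0.492), and Sqle was at -1.81 (SE 0.20). Ebp was higher by 0.36 (SE 0.11) but lay at -0.066 with normexp background correction and quantile normalization and at -0.10 in the authors' deposited table, and its call was lost without GMP replicate 2 or hCD4+ pre-pro-B replicate 1 (adjusted p up to 0.118). All 18 S phase genes and 16 of 18 G2/M genes were higher in GMP than in hCD4- pre-pro-B arrays, and all 12 plasmacytoid dendritic cell markers lower, with Spib and Ccr9 on no GMP array above background. Their part in these differences was not tested.

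**Figure D4:**
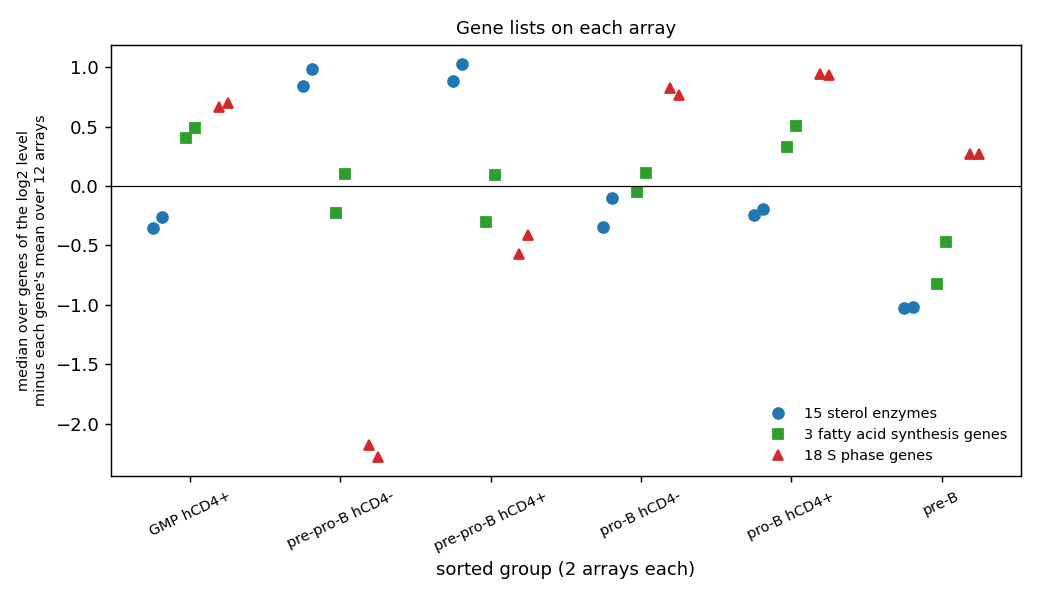
Median over genes of the log2 level minus each gene's mean over all arrays (vertical), on each array of the 6 groups, for the 15 sterol enzymes, 3 fatty acid synthesis genes and 18 S phase genes. The sterol enzymes lie at 0.84 to 1.02 on the 4 pre-pro-B arrays, where the S phase genes lie below 0.

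The hCD4 reporter marked few differences in these genes. In pre-pro-B cells 1 of 32 genes was higher and 2 were lower on hCD4+ than on hCD4- arrays, against 8.83% and 8.12% of all genes (16.9% in either direction), and the median was 0.02 beside -0.06. Ebp was the gene that was higher, and Insig1 and Scd1 were lower, but Scd1 was above background on none of the 4 arrays, so its difference carries no size. In pro-B cells none was higher and 2 were lower, against 11.5% and 9.06% (20.5% in either direction), with a median of 0.06 beside 0.02. That test was limma's, the 2 calls were Scd1 and Ebp, and at an unadjusted p under 0.05 there were 4 higher and 3 lower. With arrays scaled by their median, which moved the median of all genes from -0.06 to 0.24 and the share of higher among all calls from 52.1% to 83.6% in pre-pro-B, 5 members were higher and 2 lower there. In pro-B the same scaling moved that share from 55.9% to 30.8%, with 0 higher and 3 lower. The pre-pro-B count of 3 became 7 without hCD4- replicate 1, 1 without hCD4- replicate 2 and 0 without hCD4+ replicate 2. The pro-B count of 2 became 4 without either hCD4- pre-pro-B array and 1 without any 1 pro-B or pre-B array. Each group has 2 arrays, and each pair of groups lies on different slides, so slide and reporter cannot be told apart.

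Insig1 was lower in hCD4+ pre-pro-B cells, with a change of -1.16 (SE 0.25, adjusted p = 0.0178), with 0.64 and 0.71 against 1.66 and 2.0. The call was lost without hCD4- pre-pro-B replicate 2 (-0.99, adjusted p = 0.0966), without hCD4+ replicate 1 (-1.12, 0.0798) and without hCD4+ replicate 2 (-1.19, 0.0837). In pro-B cells Insig1 was at -0.04 (95% interval -0.61 to 0.54), and the difference between the contrasts did not pass at 1.12 (adjusted p = 0.0536). Ebp was higher in hCD4+ pre-pro-B, by 0.48 (SE 0.11, adjusted p = 0.0192), and lower in hCD4+ pro-B cells, with -0.38 (SE 0.11, adjusted p = 0.0381). The first call was lost without hCD4+ pre-pro-B replicate 2 (0.41, adjusted p = 0.128), and the second without any 1 of the 4 pro-B arrays (adjusted p up to 0.195) or either hCD4+ pre-pro-B (0.0522) or pre-B array (0.064). The test of the difference between its contrasts gave -0.86 (SE 0.15, adjusted p = 0.00665).

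For most sterol genes the interval of the hCD4 difference spanned 0. In pre-pro-B cells Sqle was at -0.0032 (95% interval -0.45 to 0.45), Srebf2 at -0.28 (95% interval -1.19 to 0.64), Hmgcs1 at 0.24 (95% interval -0.31 to 0.79) and Lss at 0.17 (95% interval -0.49 to 0.84). In pro-B cells Sqle was at 0.14 (95% interval -0.30 to 0.59), Srebf2 at -0.15 (95% interval -1.07 to 0.76) and Hmgcs1 at -0.36 (95% interval -0.92 to 0.19). These intervals allow differences of up to about 1 log2 step for Srebf2. Between the contrasts 2 genes were higher and 1 was lower in pro-B on their main probes (12.8% and 10.2% of all genes, 23% in either direction): Nsdhl 0.89 (SE 0.23, adjusted p = 0.0281), Mvd 0.74 (SE 0.23, adjusted p = 0.0491) and Ebp. A second probe of Nsdhl gave 0.17 (adjusted p = 0.772), and the mean of its probes 0.53 (adjusted p = 0.137). The Mvd call was lost without any 1 of the 12 arrays except hCD4+ pre-pro-B replicate 2 (adjusted p up to 0.131), and the Nsdhl call without hCD4- pre-pro-B replicate 2, hCD4+ pre-pro-B replicate 1, either hCD4- pro-B array or hCD4+ pro-B replicate 1 (up to 0.0899). With array median scaling, which moved the share of higher among all calls from 55.6% to 17.8%, 10 members were lower and none higher, and Mvd and Nsdhl were at 0.22 and 0.37.

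In the same contrasts other genes moved more. All 18 S phase genes were higher in hCD4+ than hCD4- pre-pro-B arrays (median 1.65), and 17 of 18 G2/M genes, while the sterol enzymes had a median of 0.04 and 1 call. In pro-B cells no S phase gene passed limma's test (2 higher and 2 lower at an unadjusted p under 0.05). There 8 of 12 plasmacytoid dendritic cell markers were higher on hCD4+ arrays.

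**Figure D5:**
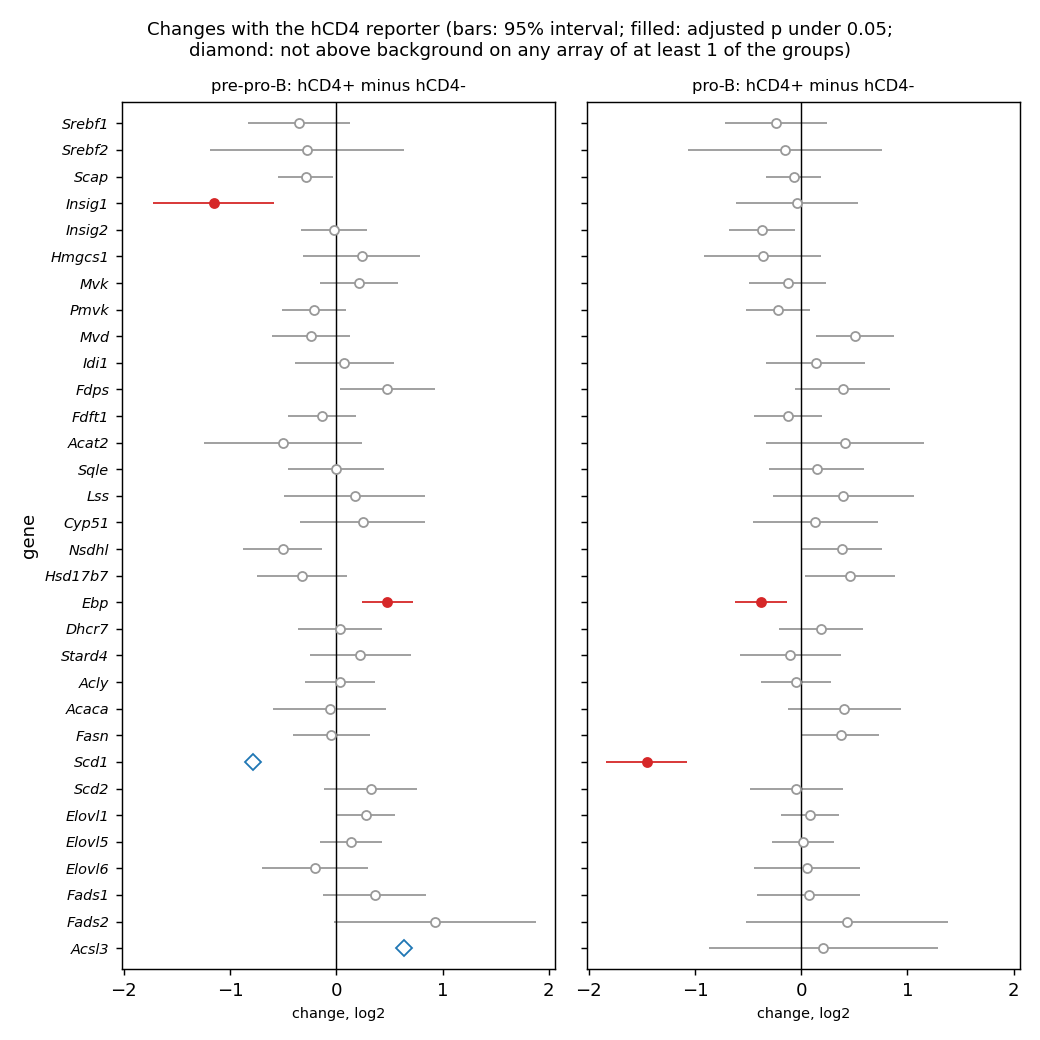
Change of each of the 32 genes with the hCD4 reporter (log2, horizontal) in pre-pro-B cells (left) and pro-B cells (right), with 95% intervals as bars. Filled points have an adjusted p under 0.05 and diamonds mark genes not above background on any array of 1 or both groups. Insig1 and Ebp are filled on the left, and Scd1 and Ebp on the right.

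On their main probes the fatty acid synthesis genes were not highest in pre-pro-B arrays, though other probes of Acaca and Acly read otherwise (below). Fasn, fatty acid synthase (probe at chr11:120667666-120667725), read -2.65 and -2.55 in hCD4- pre-pro-B, -2.73 and -2.57 in hCD4+ pre-pro-B, -2.38 and -2.25 in hCD4- pro-B, -2.09 and -1.79 in hCD4+ pro-B, -3.25 and -2.89 in pre-B and -1.97 and -1.94 in GMP arrays. Acaca, acetyl-CoA carboxylase, read 1.91 and 2.46 in hCD4- pre-pro-B, 1.90 and 2.35 in hCD4+ pre-pro-B, 2.15 and 2.31 in hCD4- pro-B, 2.57 and 2.70 in hCD4+ pro-B, 1.11 and 1.43 in pre-B and 2.60 and 2.91 in GMP arrays. On these probes both were lowest in pre-B arrays, and neither was highest in pre-pro-B arrays. Acly, ATP-citrate lyase, which supplies acetyl-CoA to both routes, ranged over all 12 arrays from 4.04 to 4.59.

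Fasn and Acaca fell from hCD4+ pro-B to pre-B, with changes of -1.13 (SE 0.16, adjusted p = 0.000695) and -1.37 (SE 0.23, adjusted p = 0.0019). From hCD4+ pre-pro-B to hCD4- pro-B they were at 0.33 (adjusted p = 0.12) and 0.11 (adjusted p = 0.748). Fasn was higher in GMP than in hCD4- pre-pro-B, by 0.64 (SE 0.16, adjusted p = 0.00672). In comparisons with hCD4- pre-pro-B the values of Acaca and Acly differed by probe. In GMP against that group 1 of the 2 other kept Acaca probes gave -1.08 (adjusted p = 0.00668) and the other 0.48 (adjusted p = 0.137), beside 0.57. The 1 other kept Acly probe gave -1.49 (adjusted p = 0.0286) beside 0.25. The Acaca probe at -1.08 and this Acly probe were also lower in hCD4- pro-B than in hCD4- pre-pro-B. Their changes were -1.01 (adjusted p = 0.0105) and -1.37 (adjusted p = 0.043). In hCD4+ against hCD4- pre-pro-B they gave -1.09 (adjusted p = 0.0271) and -1.18 (adjusted p = 0.143). For the difference of the hCD4 contrasts this Acaca probe gave 1.91 (SE 0.37, adjusted p = 0.0106), beside 0.47 on the main probe. The remaining Acaca probe gave 0.56 (adjusted p = 0.298). This Acly probe gave 1.55 (adjusted p = 0.146) there.

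Scd1, the stearoyl-CoA desaturase that makes monounsaturated fatty acids (probe at chr19:44469387-44469446), read -6.12 and -5.68 in hCD4- pre-pro-B, -6.62 and -6.75 in hCD4+ pre-pro-B, -2.42 and -2.36 in hCD4- pro-B, -3.84 and -3.85 in hCD4+ pro-B, -0.68 and -0.66 in pre-B and -6.59 and -6.29 in GMP arrays. It was above background on no GMP or pre-pro-B array and on all pro-B and pre-B arrays, and the 3 later groups did not overlap. In the main processing Scd1 was at least 5.13-fold higher in hCD4- pro-B than in hCD4+ pre-pro-B. This bound sets the bright group's mean against the dimmest measurable level of the dim arrays. The bounds were 3.49-fold between the hCD4- pro-B and pre-pro-B groups and 1.87-fold between the hCD4+ ones. They hold for the main processing only: over the alternatives these changes were as small as 1.24, 1.20 and 0.48 log2, in the order given. Pre-B arrays exceeded hCD4+ pro-B arrays by 3.17 (SE 0.16, adjusted p = 6.32e-06), a 9.02-fold difference. In pro-B cells Scd1 was lower with hCD4, with a change of -1.46 (SE 0.16, adjusted p = 0.001) or 2.74-fold, and that call held under every alternative run. Its differences among GMP and pre-pro-B groups lie below background and carry no size.

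Scd2, a related desaturase, read 2.42 and 2.38 in hCD4- pre-pro-B, 2.62 and 2.82 in hCD4+ pre-pro-B, 2.15 and 2.46 in hCD4- pro-B, 1.99 and 2.52 in hCD4+ pro-B, 2.31 and 2.50 in pre-B and 3.31 and 3.32 in GMP arrays. GMP arrays were the highest for Scd2, by 0.92 (SE 0.19, adjusted p = 0.00275) over hCD4- pre-pro-B, and the other groups were close to each other. Acsl3, an acyl-CoA synthetase of lipid droplets and the endoplasmic reticulum, read -6.76 and -6.30 in hCD4- pre-pro-B, -6.70 and -5.09 in hCD4+ pre-pro-B, -2.27 and -1.86 in hCD4- pro-B, -2.19 and -1.52 in hCD4+ pro-B, -2.49 and -2.56 in pre-B and -1.83 and -1.73 in GMP arrays. No pre-pro-B array was above background for Acsl3, and all others were. In the main processing Acsl3 was at least 6.42-fold higher in hCD4- pro-B than in hCD4+ pre-pro-B. It was at least 5.31-fold higher in GMP than in hCD4- pre-pro-B. Other bounds were 4.37-fold and 7.40-fold for the hCD4- and hCD4+ pro-B against pre-pro-B pairs and 7.80-fold for GMP against hCD4+ pre-pro-B. Over the alternatives these changes were as small as 1.48, 2.07, 1.80, 1.53 and 1.76 log2, in the order given.

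Elongases extend fatty acid chains. Elovl6, which extends palmitate, read 1.60 and 2.16 in hCD4- pre-pro-B, 1.41 and 1.95 in hCD4+ pre-pro-B, 2.87 and 2.87 in hCD4- pro-B, 2.87 and 2.98 in hCD4+ pro-B, 1.59 and 1.56 in pre-B and 0.91 and 1.06 in GMP arrays. The 4 pro-B arrays were above all others, by 1.19 (SE 0.22, adjusted p = 0.00229) over hCD4+ pre-pro-B within slide 2, and pre-B arrays were below hCD4+ pro-B arrays, with -1.35 (SE 0.22, adjusted p = 0.0015). Elovl1, for very long saturated chains, read 4.28 and 4.33 in hCD4- pre-pro-B, 4.53 and 4.64 in hCD4+ pre-pro-B, 3.61 and 3.82 in hCD4- pro-B, 3.74 and 3.86 in hCD4+ pro-B, 3.44 and 3.37 in pre-B and 5.09 and 5.22 in GMP arrays, and Elovl5, for polyunsaturated chains, read 1.96 and 2.21 in hCD4- pre-pro-B, 2.17 and 2.28 in hCD4+ pre-pro-B, 2.30 and 2.34 in hCD4- pro-B, 2.30 and 2.36 in hCD4+ pro-B, 1.88 and 2.02 in pre-B and 2.79 and 2.97 in GMP arrays. Both were highest in GMP, by 0.85 (SE 0.12) and 0.80 (SE 0.13) over hCD4- pre-pro-B.

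The desaturases of polyunsaturated fatty acids were lowest in GMP and pre-B arrays by group mean. Fads1 read -1.96 and -2.32 in hCD4- pre-pro-B, -1.71 and -1.84 in hCD4+ pre-pro-B, -1.33 and -1.36 in hCD4- pro-B, -1.09 and -1.45 in hCD4+ pro-B, -2.59 and -2.76 in pre-B and -2.46 and -3.0 in GMP arrays. Fads2 read -0.94 and -1.99 in hCD4- pre-pro-B, -0.51 and -0.57 in hCD4+ pre-pro-B, -1.59 and -1.45 in hCD4- pro-B, -1.03 and -1.15 in hCD4+ pro-B, -3.59 and -4.10 in pre-B and -3.83 and -4.95 in GMP arrays, with 1 of 2 GMP arrays above background. From hCD4+ pro-B to pre-B both fell, Fads2 with -2.76 (SE 0.41, adjusted p = 0.001) and Fads1 with -1.40 (SE 0.21, adjusted p = 0.00102). Fads2 was also lower in GMP than in hCD4- pre-pro-B, at -2.93 (SE 0.41, adjusted p = 0.000317). Stard4, a cytosolic sterol carrier, read -0.89 and -0.24 in hCD4- pre-pro-B, -0.44 and -0.24 in hCD4+ pre-pro-B, 0.17 and 0.40 in hCD4- pro-B, 0.15 and 0.21 in hCD4+ pro-B, -0.90 and -0.77 in pre-B and -0.27 and -0.07 in GMP arrays. It was highest in pro-B arrays and fell in pre-B, with -1.01 (SE 0.21, adjusted p = 0.00482).

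Neighbouring genes of these routes were read from lists beside the members. Of 12 other sterol and isoprenoid enzymes, 3 fell and 2 rose from hCD4+ pre-pro-B to hCD4- pro-B, against 18.6% and 29.3% of all genes. Those that fell are cholesterol enzymes, Sc4mol -2.25 (SE 0.20), Tm7sf2 -1.62 (SE 0.14) and Sc5d -1.27 (SE 0.14). Those that rose were Pdss1, of ubiquinone synthesis, 1.38 (SE 0.17), and Lbr, a lamin B receptor with sterol reductase activity, 0.85 (SE 0.20). Sc4mol fell again into pre-B, with -1.05 (SE 0.20), and was lower in GMP than in hCD4- pre-pro-B, at -2.12 (SE 0.20).

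Sterol export genes were mixed. Of 16 measured genes of export, storage and the liver X receptors, 3 rose and 8 fell from hCD4+ pre-pro-B to hCD4- pro-B (29.3% and 18.6% of all genes), and 4 rose and 5 fell from hCD4+ pro-B to pre-B (19.1% and 23.8%). Mylip, a liver X receptor target that degrades lipoprotein receptors, rose by 2.47 (SE 0.22) and then 2.65 (SE 0.22). Abca1, the cholesterol exporter, rose by 2.14 (SE 0.51) and then 2.29 (SE 0.51), and Abcg1 by 1.09 (SE 0.16) into pre-B. Falls included Npc1, which releases cholesterol from lysosomes, -3.34 (SE 0.19) at the first step, and Soat2, a cholesterol esterifying enzyme, which was above background on both hCD4+ pre-pro-B arrays, on 1 of 2 hCD4- pro-B arrays and on no pre-B array.

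Of 10 measured genes of SREBP processing and turnover, 5 fell at the step to hCD4- pro-B and none rose in limma's test (6 and 0 at an unadjusted p under 0.05), against 18.6% lower and 29.3% higher over all genes. At the step to pre-B 3 rose and none fell in that test (3 and 1 unadjusted), against 19.1% and 23.8%. GMP against hCD4- pre-pro-B had 3 higher and 3 lower, against 34.7% and 30.8%. Of 17 other fatty acid synthesis and elongation genes, 10 fell and 1 rose from hCD4+ pro-B to pre-B, against 23.8% and 19.1% of all genes. Among those that fell were Fads3 -3.80 (SE 0.16), the citrate carrier Slc25a1 -2.12 (SE 0.17) and Elovl7, which was above background on no pre-B array. The same list had 5 higher and 5 lower at the step to hCD4- pro-B (29.3% and 18.6%). Of 14 fatty acid oxidation genes 1 rose and 1 fell into pre-B (19.1% and 23.8%), and 7 were higher and 1 lower in GMP than in hCD4- pre-pro-B (34.7% and 30.8%).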

How the data were processed

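RNA of 12 sorted marrow samples was measured on one-colour Agilent arrays. Per the labels' protocols total RNA was extracted with DNase treatment, linearly amplified and labelled with Cy3. The deposited scanner files hold the processed signal, an intensity on the linear scale that Agilent Feature Extraction 10.7.3.1 had background-corrected, per the file headers. The authors also deposited a table of log2 values to 1 decimal, whose scaling is not given in the sources used here, with every column median at 6.5; it served as an alternative. The software's marks for background and outliers, deposited in the same files, were read as other columns. Here log2 was taken, 2469 outlier spot values were set to missing, each array's 75th percentile was subtracted and spots of a probe were averaged. No spot was saturated. Probes entered the fit if each array of 1 or more groups showed them well over background, and the brightest kept probe stood for each gene name, 18556 in all.

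Changes were fitted with limma 3.58.1 (lmFit and eBayes, R 4.3.3) over all 12 arrays, with degrees of freedom of 6 (residual) and 2.14 (prior). The two-sided p-values of a comparison were adjusted over all genes tested (Benjamini-Hochberg), and rises and falls are named at an adjusted p under 0.05. The fit was tested on simulated data. Summed marker levels are log2 of the summed linear levels. A lower bound compares the bright group's mean with the dimmest level that counted as above background on the dim arrays, and holds for the main processing only. Having 2 arrays a group limits the precision.

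The members, lists and comparisons were chosen with earlier results of these data known. Every member may be named, values per array are given for members that passed in an hCD4 or within-slide comparison and for 10 members always, and other lists are represented by up to 4 of their genes with the largest changes. The plasmacytoid dendritic cell and natural killer cell lists were added last, and 1 marker gene is not reported here. By accession 30 of the 32 members matched RefSeq, all under the same symbol. Promoter windows are RefSeq's. Alternatives were array median scaling, quantile normalization, normexp background correction (offset 50) with quantile normalization, the authors' table, no filter, the mean of a gene's probes, a detection floor, fits on fewer arrays, a replicate block and leaving out each array. Probe positions were not compared with exons, and no genome was used.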

Additional observations from a re-analysis of the deposited data

Results flagged for a closer look

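On their main probes the hCD4 contrast differed between cell stages in 3 members, by the test of the difference itself. Another kept probe of Acaca also passed, at 1.91 (SE 0.37, adjusted p = 0.0106), beside 0.47 on its main probe. For Ebp the contrast in pro-B minus that in pre-pro-B was -0.86, and this call held under every alternative run. For Nsdhl it was 0.89 and for Mvd 0.74, and both lost their call under several alternatives. A second Nsdhl probe gave 0.17 (adjusted p = 0.772). Of all genes tested 23% passed this test, against 3 of 32 members. The 4 groups lie on 3 slides, and slide and stage cannot be told apart.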

How the results depend on the processing

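Of 168 called changes of single members over the 10 comparisons, 119 kept their call under every alternative and 49 lost it under at least 1. The count of members called in pre-pro-B hCD4+ against hCD4- was 3, and became 7 with array median scaling and 0 in a fit on the compared arrays alone. In pro-B it was 2, and became 1 with quantile normalization, with normexp and quantile normalization, in the authors' table, without the filter and on the compared arrays alone, and 4 without both hCD4- pre-pro-B arrays. For the difference of the hCD4 contrasts it was 3, and became 10 with array median scaling, 5 in the deposited table and with the detection floor, and 1 without the filter, on the compared arrays alone and with the mean of a gene's probes. Leaving out 1 array gave ranges of 0 to 7, 1 to 4 and 1 to 4 for these 3 comparisons. It gave 20 to 24 (main 23) for hCD4- and 18 to 24 (23) for hCD4+ pro-B against pre-pro-B, 19 to 24 (22) for hCD4- pro-B relative to hCD4+ pre-pro-B, 11 to 19 (18) for pre-B against hCD4- and 14 to 20 (20) against hCD4+ pro-B, and 22 to 27 (26) and 24 to 28 (28) for GMP against hCD4+ and hCD4- pre-pro-B. Where a group keeps 1 array, that array is assumed to vary like the other groups. For the other 7 comparisons no alternative moved the count by over 1.5 times, except pre-B against hCD4- pro-B without hCD4- pro-B replicate 2. Directions turned in 5 cases: in GMP against hCD4- pre-pro-B Insig2 was at 0.073 with each array scaled by its median, and the authors' table had Acly at -0.70 and Fdps at -0.45, and in GMP against hCD4+ pre-pro-B Ebp was at -0.066 with normexp and quantile normalization and at -0.10 in the authors' table. The cause was not tested. The labels give no pairing for the replicate numbers. Deviations of same-numbered arrays correlated at -0.01 to 0.25 (median 0.15) over 15 pairs of groups, 10 of them over 0.1. Whether same-numbered arrays share a source was not tested. With a replicate block the counts were 3, 2 and 3 for the hCD4 comparisons and their difference, 24 and 27 for hCD4- and hCD4+ pro-B against pre-pro-B, 25 for hCD4- pro-B relative to hCD4+ pre-pro-B, 19 and 21 for pre-B against hCD4- and hCD4+ pro-B, and 28 and 29 for GMP against hCD4+ and hCD4- pre-pro-B. Signal over background limits Scd1 in GMP and pre-pro-B, Acsl3 in pre-pro-B and Fads2 in GMP arrays. Lss in pre-B arrays and GMP replicate 2, and Fads2 in pre-B replicate 2, lay close to the dimmest level above background. Over the alternatives Fads2 was as small as -1.25 in pre-B against hCD4+ pro-B and -1.45 in GMP against hCD4- pre-pro-B. Lss was as small as -0.43 and -0.93 in the same 2 comparisons. The shared estimate of the spread can understate the error of comparisons with the noisier hCD4- pre-pro-B arrays.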

Other observations

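Genes of fatty acid oxidation and cholesterol handling were also read in GMP against hCD4- pre-pro-B cells, where 34.7% of all genes were higher and 30.8% lower. Of 14 oxidation genes 7 were higher in GMP, among them Dci 2.01 (SE 0.14), Decr1 1.69 (SE 0.13) and Cpt2 1.54 (SE 0.15), which act in mitochondria, against a median of -0.04 for all genes. Of 16 genes of sterol export, storage and liver X receptors 7 were higher and 6 lower. Cyp27a1, a sterol hydroxylase, was above background on both hCD4- pre-pro-B arrays and on no GMP array, and Npc1 was at -3.39 (SE 0.19, adjusted p = 1.45e-06). Elovl7, an elongase, was above background on both GMP arrays and on no hCD4- pre-pro-B array, and Fads3 was at -5.84 (SE 0.16). Of the 4 measured natural killer cell markers 1 was higher and 1 lower in GMP than in hCD4- pre-pro-B, and Klrb1c was above background on no GMP or pre-pro-B array.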
